A study of Mus musculus with 9 samples.

Results

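Nucleotide excision repair was examined through 33 genes, found by an exact match of gene name among the 55536 genes of the deposited table, in epidermal keratinocytes of UVB-exposed mice. Mice of 3 genotypes were used, 3 WT, 3 Hmga2-/- and 3 K5H2. Hmga2-/- denotes animals homozygous for a null allele of Hmga2, the gene of a chromatin-bending protein of AT-rich DNA, while K5H2 is named as the labels give it, and how either allele was built is not stated in the labels. All 9 mice were 8 weeks old with dorsal hair follicles in telogen, and all were exposed on the dorsum to UVB, in 2 doses of 20 mJ/cm2 within 3 days, with skin collected 24 h later. The epidermis was lifted on 0.25% trypsin overnight before RNA was isolated. There was no unexposed skin, so each comparison is between genotypes after UVB, and whether UVB changed a repair gene cannot be read from these data. The animals are separate mice, so the spread used in the tests is the spread between animals.

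Nucleotide excision repair cuts a short stretch of single-stranded DNA around a bulky lesion and fills the gap, and in mammals it is the pathway that removes the pyrimidine dimers and 6-4 photoproducts made by UV light. In its global branch the lesion is found anywhere in the genome, by the XPC complex and by the UV-damaged DNA-binding complex. In its transcription-coupled branch the lesion is found where it stalls RNA polymerase II. Both branches then recruit TFIIH to open the helix, XPA and RPA to verify and hold it, 2 nucleases to cut on either side, and a polymerase and ligase to fill and seal. Inherited loss of these genes in humans underlies xeroderma pigmentosum, Cockayne syndrome, UV-sensitive syndrome and trichothiodystrophy.

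No repair gene passed the test between genotypes. The values are the authors' normalized counts, compared with limma on log2(value + 1), and a gene was called where the Benjamini-Hochberg adjusted p was under 0.05. In Hmga2-/- against WT, 0 of 33 members were called, against 0.728% of the 14695 genes tested, and 6 members had an unadjusted p under 0.05 (18.2% of members, 23.7% of all genes). In K5H2 against WT, 0 were called against a background of 1.28%, and 2 had an unadjusted p under 0.05 (6.06%, against 18% of all genes). In K5H2 against Hmga2-/-, 0 were called against a background of 0.497%, and 6 had an unadjusted p under 0.05 (18.2%, against 21.1%). By the authors' deposited table, an adjusted p under 0.05 went to 0 members in the comparisons with WT (backgrounds of 7.75% for Hmga2-/- and 6.42% for K5H2), and to 1 member, Uvssa, between K5H2 and Hmga2-/- (background 4.22%). A p that misses the threshold does not show that the genotypes were alike, and the comparisons share their animals in pairs.

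Differences of the members between genotypes were mostly small. The median absolute log2 fold change of the 33 members was 0.21, 0.19 and 0.20 in Hmga2-/- against WT, K5H2 against WT and K5H2 against Hmga2-/-, and 0.33, 0.27 and 0.31 over all genes tested. The signed medians were 0.03, -0.09 and -0.09, beside -0.01, -0.02 and 0.01 over all genes. Within 1.5-fold lay 29, 32 and 29 of the 33 members, and 73.3%, 78.1% and 77.2% of all genes tested. Between animals of a genotype the members had a median within-group SD of 0.192 on the log2 scale, against 0.294 over all genes. Members had a median level of 845 normalized counts and all genes tested one of 531, and the part of this difference in level was not tested. Summed over the 33 genes, the animals held 52461 to 59333 normalized counts.

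**Figure D1:**
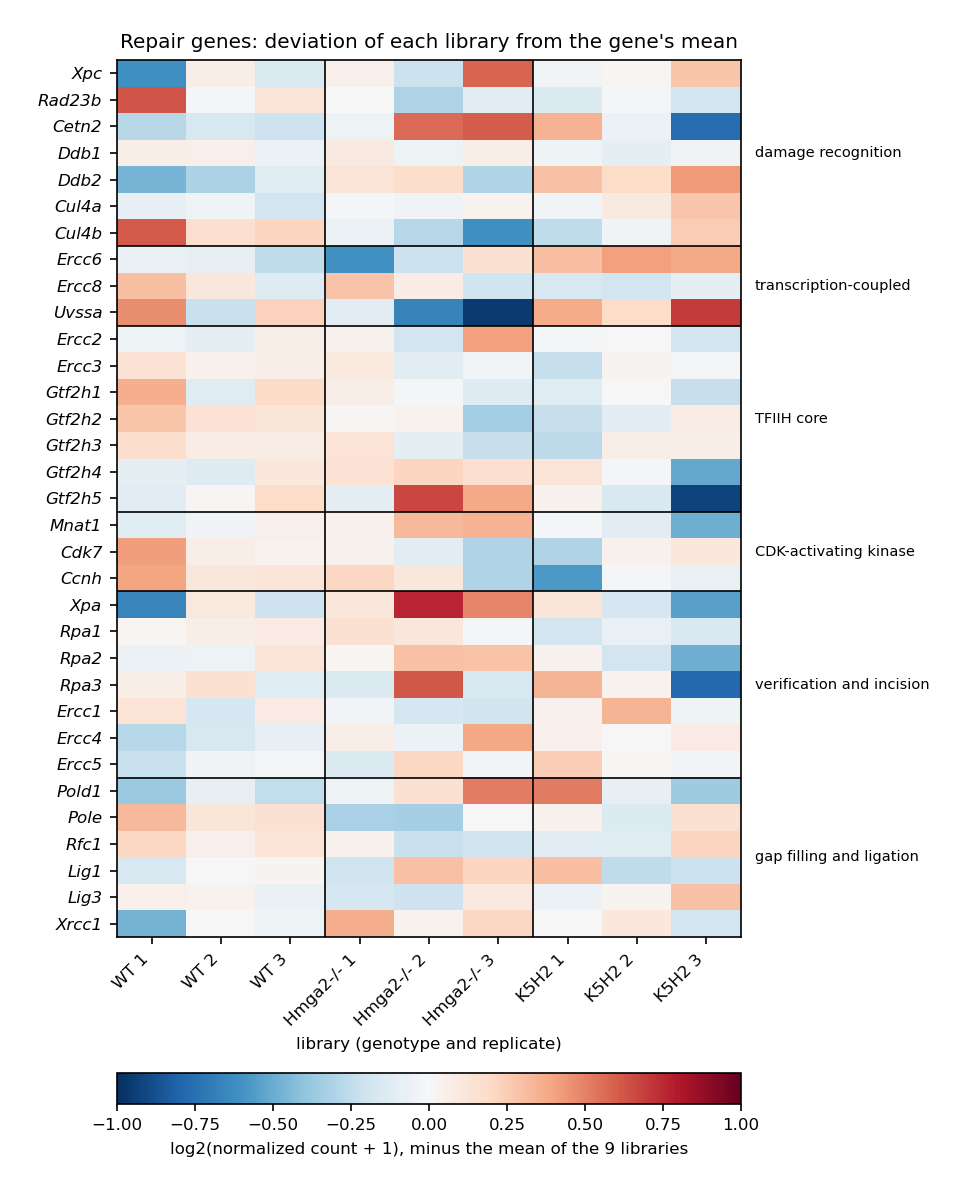
Deviation of each library (columns, 3 per genotype) from the gene's mean over the 9 libraries, on the log2(normalized count + 1) scale, for the 33 repair genes in order of role (rows). Most cells are pale. Deep colours include those in Uvssa and Xpa, in Gtf2h5, Cetn2 and Rpa3 of K5H2 3, and in several genes of WT 1, Hmga2-/- 2 and Hmga2-/- 3.

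The map of deviations by library shows that the strong deviations are scattered over roles and are often set by single animals. In 8 of the 33 genes the highest library was at least 2 times the lowest. That ratio was 3.16 for Uvssa, 3.01 for Gtf2h5 and 2.68 for Xpa, and 1.13 for Ddb1.

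Depth and composition of the libraries were as follows. The approximate number of reads in genes was 28.1 to 41.5 M in 8 libraries and 15.4 M in Hmga2-/- 3, so that the member value with the fewest reads behind it, Uvssa in Hmga2-/- 3, rested on about 75. The first principal component (36.6% of the variance) had WT 1 at one end and Hmga2-/- 3 at the other. The mitochondrial share of counts was lowest in Hmga2-/- 3 (0.279%) and Hmga2-/- 2 (0.502%) and was 0.983% to 2.15% elsewhere. Hmga2 itself had 346, 11 and 56 normalized counts in the WT animals, 3, 9 and 7 in the Hmga2-/- animals and 4, 11 and 0 in the K5H2 animals, and did not pass the limma test in any comparison (adjusted p = 0.152 for Hmga2-/- and 0.116 for K5H2 against WT). In the authors' deposited table its adjusted p is 0.0377 and 0.0210 in these comparisons and 0.924 between K5H2 and Hmga2-/-. All 6 keratinocyte markers were present, summing to 2.24 to 4.19 M in the 9 libraries. Markers of other cells were also present: 7 Langerhans cell markers summed to 8823 to 28513 in WT, 22499 to 43174 in Hmga2-/- and 19229 to 28334 in K5H2, 6 T cell markers to 1364 to 4378, 3941 to 5118 and 1665 to 2519, 6 fibroblast markers to 37 to 96, 236 to 897 and 192 to 3201, and 7 melanocyte markers to 377 to 565, 284 to 667 and 577 to 987. Of the 7 melanocyte markers, 1 was listed at 0 in Hmga2-/- 2 and 1 in Hmga2-/- 3, and 1 of the 6 fibroblast markers was at 0 in WT 1, WT 3, Hmga2-/- 2 and Hmga2-/- 3. Their part in the repair genes' values was not tested. In bulk RNA, fewer cells of a type and less RNA per cell cannot be told apart.

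Upstream sequences are shown for the 2 transcription-coupled genes that were highest in K5H2 (Uvssa and Ercc6). Sequences are also shown for Cul4b, the gene with the smallest p in Hmga2-/- against WT, and for Xpa, with the largest positive fold change in that comparison. They are RefSeq sequence of build GRCm38.p6, read 5′ to 3′ on the strand of the gene and ending at the base before its start: Uvssa at chr5:33378446-33378548 on the plus strand, Ercc6 at chr14:32513271-32513520 on the plus strand, Cul4b at chrX:38576197-38576446 on the minus strand and Xpa at chr4:46196312-46196561 on the minus strand. The Uvssa stretch is shorter because it stops at the first of the gene's annotated starts. Capitals mark matches to the motifs named after the sequences.
Uvssa: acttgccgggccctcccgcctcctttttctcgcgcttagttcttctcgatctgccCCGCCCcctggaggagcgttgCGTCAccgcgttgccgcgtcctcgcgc
Ercc6: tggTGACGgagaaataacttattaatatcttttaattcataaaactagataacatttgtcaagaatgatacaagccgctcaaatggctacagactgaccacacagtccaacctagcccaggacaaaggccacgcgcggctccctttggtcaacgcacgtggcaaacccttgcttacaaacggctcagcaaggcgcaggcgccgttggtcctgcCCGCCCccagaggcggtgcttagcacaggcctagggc
Cul4b: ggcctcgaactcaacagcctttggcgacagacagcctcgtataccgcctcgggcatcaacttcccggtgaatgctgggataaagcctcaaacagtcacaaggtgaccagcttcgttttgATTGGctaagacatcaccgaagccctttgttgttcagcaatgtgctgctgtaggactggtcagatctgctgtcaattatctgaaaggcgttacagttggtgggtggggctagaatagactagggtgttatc
Xpa: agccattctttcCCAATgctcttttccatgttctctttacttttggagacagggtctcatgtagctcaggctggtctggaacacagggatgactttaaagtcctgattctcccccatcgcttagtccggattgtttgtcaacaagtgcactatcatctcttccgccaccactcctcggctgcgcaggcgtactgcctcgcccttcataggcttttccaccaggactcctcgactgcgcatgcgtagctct

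The motifs searched on both strands of the 250 bases before the RefSeq start were the cAMP response element TGACGTCA, its half-site TGACG (which the full element contains), the GC box GGGCGG, the CCAAT box CCAAT and the TATA box TATAAA. Positions of matches are counted back from the end of each sequence printed above. For Uvssa that sequence stops short of the end of the 250 bases searched. The series title names cAMP signalling, which is why the element of the cAMP-responsive factor CREB was included. Of the 33 members, 28 had a window. Xpc, Ddb2, Ercc3, Pole and Ccnh had none, so Ddb2, with the smallest p in K5H2 against WT, could not be shown. A gene was counted where any of its windows held the motif. The full cAMP element was in 0 of 28 members and 1.77% of all 27025 genes with a window. Its half-site was in 11 members (39.3%) and in 19.8% of all genes with a window. Among the 11 were Uvssa, 27 bases before its first annotated start and on the opposite strand, and Ercc6, 247 bases before its start. The GC box was in 18 members (64.3%, against 35.4% of all genes with a window). The CCAAT box was in 14 members (50%, against 37.5%), including Cul4b at 131 bases, on the opposite strand, and Xpa at 238 bases. The TATA box was in 0 members and 14.3% of all genes with a window. Member windows were richer in G and C, with a median of 63.6% against 52.4%, and the GC box is itself made of these letters. A match describes the letters and says nothing of whether a factor was bound.

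The genes that find damage in the global branch were taken first. Ddb2 encodes the lesion-binding subunit of the UV-damaged DNA-binding complex and, in humans, is a p53 target. Ddb2 (chromosome 2, 91211572 to 91236982, minus strand, in GRCm38 as for all gene positions given here) was at 168, 186 and 214 normalized counts in WT 1 to 3, at 254, 263 and 189 in Hmga2-/- 1 to 3, and at 285, 264 and 312 in K5H2 1 to 3. Each K5H2 animal was above all 6 others, though K5H2 2 by a single count over Hmga2-/- 2, and the Hmga2-/- animals overlapped WT. The means were 189 ± 23.2, 235 ± 40.4 and 287 ± 24.1 (SD, n = 3 each). The log2 fold change of K5H2 against WT was 0.60 (SE 0.20, limma adjusted p = 0.154), and the authors' deposited table gives an adjusted p of 0.0697. It was 0.30 (SE 0.20) both for Hmga2-/- against WT (limma adjusted p = 0.357) and for K5H2 against Hmga2-/- (limma adjusted p = 0.408). Exons of Ddb2 share 652 bases, 23.8% of their length, with Acp2 on the opposite strand, and the labels do not state whether counting used the strand. Acp2 was at 318, 299 and 333 in WT, at 348, 206 and 171 in Hmga2-/-, and at 308, 303 and 320 in K5H2. In Hmga2-/- 3, the lowest for Acp2, Ddb2 was the lowest of its genotype too. In Hmga2-/- 2, with Acp2 at 206, Ddb2 was the highest of its genotype. The part of Acp2 in the Ddb2 values was not tested.

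Ddb1, the partner of Ddb2 and the adaptor of the CUL4 ubiquitin ligases, was the steadiest and the most abundant member per exonic kilobase. It was at 15833, 15646 and 14552 in WT, at 16093, 14629 and 15887 in Hmga2-/-, and at 14721, 14268 and 14795 in K5H2. The groups overlapped and the within-group SD was 0.060 on the log2 scale, the lowest of the 33.

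The ligase scaffolds that work with DDB1 are Cul4a and Cul4b, and they were not alike. Cul4b (chromosome X, 38533274 to 38576196, minus strand) was at 1221, 894 and 924 in WT, at 765, 653 and 522 in Hmga2-/-, and at 668, 778 and 950 in K5H2. Every Hmga2-/- animal was below every WT animal, and K5H2 overlapped both. Its mean was 1013 ± 181 in WT, 647 ± 122 in Hmga2-/- and 799 ± 142 in K5H2 (SD, n = 3 each). The log2 fold change of Hmga2-/- against WT was -0.65 (SE 0.20, limma adjusted p = 0.119), the smallest p of the 33 in that comparison, and the authors' deposited table gives an adjusted p of 0.0562. Without both WT 1 and Hmga2-/- 3 it was -0.36. For K5H2 it was -0.34 (SE 0.20, limma adjusted p = 0.391) against WT and 0.31 (SE 0.20, limma adjusted p = 0.395) against Hmga2-/-. Cul4a was at 2341, 2406 and 2174 in WT, at 2446, 2416 and 2547 in Hmga2-/-, and at 2434, 2636 and 3009 in K5H2, with every animal of both other genotypes above every WT animal by a small margin.

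The XPC complex gave opposite signs for its subunits. Xpc, the global lesion sensor (chromosome 6, 91489305 to 91515888, minus strand), was at 531, 852 and 736 in WT, at 843, 700 and 1216 in Hmga2-/-, and at 796, 822 and 982 in K5H2. WT 1 was the lowest and Hmga2-/- 3 the highest, and the groups overlapped. Its log2 fold change was 0.37 (SE 0.23, limma adjusted p = 0.337) in Hmga2-/- against WT, 0.32 (SE 0.23, limma adjusted p = 0.496) in K5H2 against WT and -0.05 (SE 0.23, limma adjusted p = 0.916) in K5H2 against Hmga2-/-. Without both WT 1 and Hmga2-/- 3, the first of these was -0.04. Rad23b, which stabilises XPC (chromosome 4, 55350043 to 55392237, plus strand), was at 9811, 6244 and 6963 in WT, at 6345, 5129 and 5910 in Hmga2-/-, and at 5778, 6261 and 5586 in K5H2. WT 1 stood above the rest, and WT 2 overlapped both other genotypes. The log2 fold change of Rad23b was -0.38 (SE 0.18, limma adjusted p = 0.220) in Hmga2-/- and -0.36 (SE 0.18, limma adjusted p = 0.320) in K5H2, each against WT, and 0.02 (SE 0.18, limma adjusted p = 0.951) between them. Without WT 1 those against WT were -0.19 and -0.17. Cetn2, centrin 2, which is also a centrosome protein, was at 786, 855 and 826 in WT, at 924, 1416 and 1457 in Hmga2-/-, and at 1213, 919 and 562 in K5H2. Every Hmga2-/- animal was above every WT animal for Cetn2, and K5H2 animals ran from below WT to above it.

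**Figure D2:**
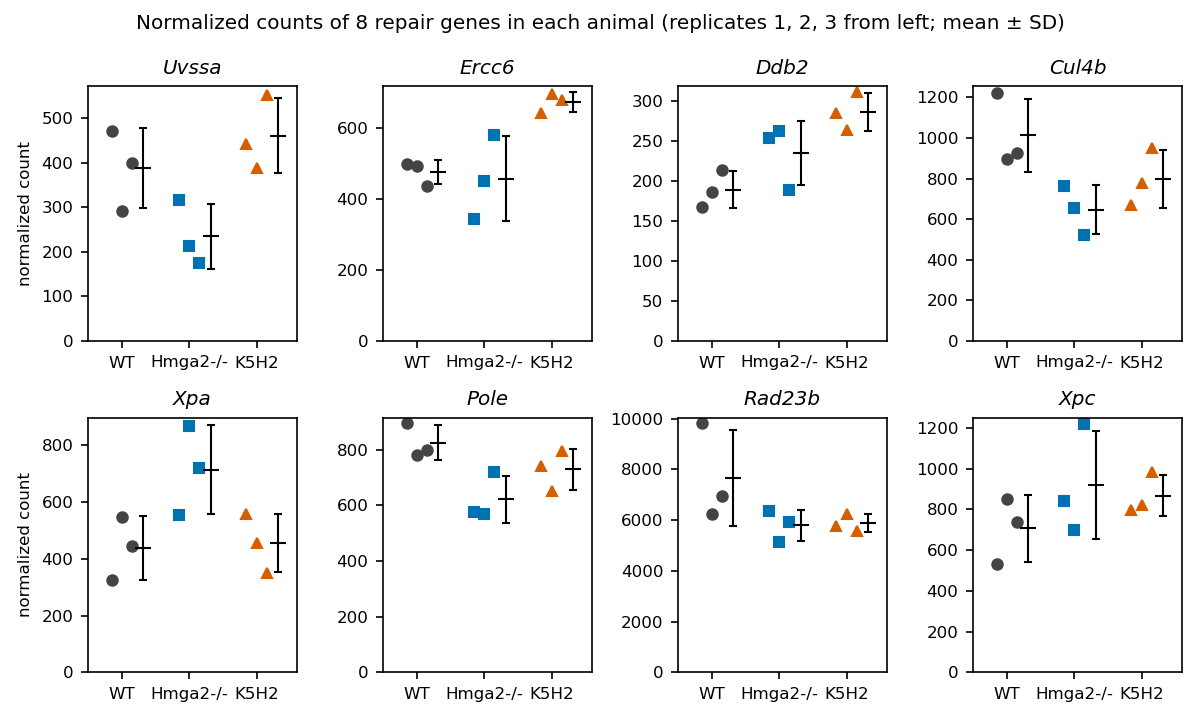
Normalized counts (vertical axis, starting at 0) of 8 repair genes in each of the 9 animals, with replicates 1, 2 and 3 of a genotype from left to right and the mean ± SD at the right of each group. Ercc6 and Ddb2 in the 3 K5H2 animals sit above all 6 other animals, and Cul4b and Pole in the 3 Hmga2-/- animals sit below all WT animals.

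The transcription-coupled genes held the largest difference of all. Uvssa encodes the UV-stimulated scaffold protein, which is recruited to stalled RNA polymerase II and whose loss causes UV-sensitive syndrome in humans. Uvssa (chromosome 5, 33378549 to 33419754, plus strand) was at 471, 292 and 400 normalized counts in WT, at 316, 214 and 175 in Hmga2-/-, and at 442, 388 and 553 in K5H2. All K5H2 animals were above all Hmga2-/- animals, and WT overlapped both. The means were 388 ± 90.1, 235 ± 72.8 and 461 ± 84.1 (SD, n = 3 each). K5H2 was higher than Hmga2-/- by a log2 fold change of 1.00 (SE 0.26, unadjusted p = 0.00298, adjusted p = 0.112, limma). The authors' deposited table gives 0.96 with an adjusted p of 0.0260. Over the 22 alternative settings the limma value ran from 0.81 to 1.23 and its adjusted p from 0.0562 to 0.530. Against WT, the log2 fold change was -0.74 (SE 0.26, limma adjusted p = 0.144) for Hmga2-/- and 0.26 (SE 0.26, limma adjusted p = 0.626) for K5H2.

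Ercc6 showed a K5H2 level that stood apart from both other genotypes. It encodes CSB, the ATPase that binds stalled RNA polymerase II and is mutated in human Cockayne syndrome. Ercc6 (chromosome 14, 32513521 to 32580990, plus strand) was at 499, 493 and 438 in WT, at 343, 450 and 580 in Hmga2-/-, and at 643, 697 and 679 in K5H2. Each K5H2 animal was above all 6 others, and Hmga2-/- spanned the WT range. The means were 477 ± 33.6, 458 ± 119 and 673 ± 27.5 (SD, n = 3 each). K5H2 was higher by a log2 fold change of 0.50 (SE 0.19, limma adjusted p = 0.212) against WT and 0.59 (SE 0.19, limma adjusted p = 0.151) against Hmga2-/-, and Hmga2-/- against WT was at -0.09 (SE 0.19, limma adjusted p = 0.796). The authors' deposited table gives adjusted p values of 0.166 and 0.101 for the comparisons with K5H2. Ercc6 passed the test under 2 of the alternative settings. These were library quality weights for K5H2 against WT (adjusted p = 0.00470, limma) and rescaling to equal library totals for K5H2 against Hmga2-/- (adjusted p = 0.0440, limma). With the weights, 3222 of the 14695 genes tested were called in K5H2 against WT, where the main fit called 188. The rescaling also raised the number of genes called, as given at the end. Over all 22 settings the adjusted p of Ercc6 ran to 0.478 and 0.530 in these comparisons.

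Ercc8, which encodes CSA, the receptor of a CUL4 ligase that acts with CSB, did not follow the other two. It was at 329, 288 and 244 in WT, at 325, 280 and 232 in Hmga2-/-, and at 238, 233 and 250 in K5H2, with all groups overlapping. The transcription-coupled genes summed to 1073 to 1299 in WT, 944 to 987 in Hmga2-/- and 1318 to 1482 in K5H2, where Ercc6 and Uvssa make up most of the sum. Of the 3 genes, 3 were negative in Hmga2-/- against WT (2 after quantile normalization) and 2 were positive in K5H2 against either other genotype, 3 of them against Hmga2-/- after rescaling to equal totals.

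TFIIH, which opens DNA around the lesion and also starts transcription by RNA polymerase II, was represented by 7 core subunits and 3 of its kinase module. The core helicases are Ercc2 (XPD) and Ercc3 (XPB). Ercc2 was at 800, 780 and 865 in WT, at 853, 724 and 1104 in Hmga2-/-, and at 823, 832 and 731 in K5H2, and shares 17.8% of its exonic bases with Klc3 on the opposite strand. The mean of Klc3 over the libraries was 11450 normalized counts, against 835 for Ercc2, and the part of Klc3 in the Ercc2 values was not tested. Ercc3 was at 1440, 1345 and 1354 in WT, at 1394, 1214 and 1275 in Hmga2-/-, and at 1111, 1330 and 1292 in K5H2. Ercc2 overlapped between genotypes, while K5H2 was below WT for Ercc3 without overlap.

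The other core subunits form the ring that joins and regulates the helicases. Gtf2h2, the p44 regulator of XPD, was at 660, 600 and 591 in WT, at 549, 557 and 428 in Hmga2-/-, and at 464, 506 and 573 in K5H2, with both other genotypes wholly below WT. Gtf2h5, the small subunit that is lost in a form of trichothiodystrophy, was at 1530, 1674 and 1886 in WT, at 1550, 2625 and 2149 in Hmga2-/-, and at 1705, 1492 and 872 in K5H2, where K5H2 3 was the lowest of the 9. Gtf2h4, the p52 subunit that anchors XPB, was at 580, 570 and 671 in WT, at 688, 721 and 695 in Hmga2-/-, and at 679, 615 and 436 in K5H2, with Hmga2-/- above both other genotypes. Gtf2h1, which encodes p62, was at 2283, 1632 and 2019 in WT and 1506 to 1855 in the other animals. Gtf2h3, which encodes p34, was at 950, 884 and 883 in WT, at 923, 785 and 716 in Hmga2-/-, and at 702, 881 and 880 in K5H2. K5H2 was wholly below WT for Gtf2h3, at the closest 881 against 883.

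All 7 core subunits had negative log2 fold changes in K5H2 against WT, with a median of -0.15, and 0 were called (limma, 0 at an unadjusted p under 0.05). In the same comparison 7625 of the 14695 genes tested were negative. Of all genes, 1.28% were called and 18% had an unadjusted p under 0.05 (limma). After rescaling to equal totals or upper quartiles 6 of the 7 core subunits were negative. The summed core level was 7485 to 8269 in WT, 7812 to 8383 in Hmga2-/- and 6290 to 7422 in K5H2. On the authors' scale the K5H2 sums were below those of all 6 other animals, K5H2 3 being the lowest. In K5H2 against Hmga2-/-, the core subunits were 2 positive and 5 negative. After rescaling to equal totals they were 5 and 2, so the order of these genotypes depends on the scaling. In Hmga2-/- against WT 3 were positive and 4 negative.

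The kinase module, CDK-activating kinase, phosphorylates RNA polymerase II and cell cycle kinases and is released from TFIIH during repair. Mnat1, its assembly factor (chromosome 12, 73123717 to 73273988, plus strand), was at 929, 989 and 1047 in WT, at 1042, 1267 and 1291 in Hmga2-/-, and at 1004, 941 and 722 in K5H2. All K5H2 animals were below all Hmga2-/- animals. The log2 fold change of K5H2 against Hmga2-/- was -0.44 (SE 0.16, limma adjusted p = 0.178), with 0.27 (SE 0.16, limma adjusted p = 0.311) for Hmga2-/- and -0.17 (SE 0.16, limma adjusted p = 0.622) for K5H2 against WT. Ccnh, the cyclin H subunit (chromosome 13, 85189408 to 85223469, plus strand), was at 634, 521 and 524 in WT, at 555, 521 and 391 in Hmga2-/-, and at 323, 476 and 458 in K5H2. K5H2 was wholly below WT, with K5H2 1 the lowest animal. Its log2 fold change was -0.43 (SE 0.21, limma adjusted p = 0.303) in K5H2 against WT, -0.20 (SE 0.21, limma adjusted p = 0.547) in Hmga2-/- against WT and -0.23 (SE 0.21, limma adjusted p = 0.542) between K5H2 and Hmga2-/-. Cdk7, the kinase itself, was at 903, 707 and 695 in WT, at 699, 628 and 550 in Hmga2-/-, and at 548, 698 and 727 in K5H2, with overlap. The 3 genes summed to 2217 to 2466 in WT, 2232 to 2416 in Hmga2-/- and 1875 to 2115 in K5H2. On the authors' scale K5H2 was thus again lowest. All 3 genes were negative in K5H2 against WT under each of the scalings tried. In K5H2 against Hmga2-/-, their median log2 fold change was -0.23, and -0.000504 after rescaling to equal totals.

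Damage verification rests on Xpa, a scaffold that binds the opened DNA and without which neither branch works. Xpa (chromosome 4, 46155347 to 46196311, minus strand) was at 324, 548 and 445 normalized counts in WT, at 555, 868 and 720 in Hmga2-/-, and at 558, 456 and 352 in K5H2. Every Hmga2-/- animal was above every WT animal, by 7 counts at the closest, and K5H2 1 overlapped Hmga2-/-. The means were 439 ± 112, 714 ± 157 and 455 ± 103 (SD, n = 3 each). The log2 fold change was 0.71 (SE 0.25, limma adjusted p = 0.142) in Hmga2-/- against WT, 0.06 (SE 0.25, limma adjusted p = 0.919) in K5H2 against WT and -0.65 (SE 0.25, limma adjusted p = 0.188) in K5H2 against Hmga2-/-. For the first and the last of these, adjusted p values of 0.0803 and 0.142 stand in the authors' deposited table.

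RPA coats the undamaged strand and places the nucleases. Rpa1, its large subunit, was at 2739, 2810 and 2865 in WT, at 2996, 2921 and 2669 in Hmga2-/-, and at 2381, 2563 and 2434 in K5H2, with K5H2 below all other animals. Rpa2, the middle subunit, was at 1143, 1149 and 1301 in WT, at 1207, 1452 and 1450 in Hmga2-/-, and at 1224, 1048 and 845 in K5H2. Rpa3, the small subunit, was at 402, 429 and 355 in WT, at 350, 594 and 346 in Hmga2-/-, and at 490, 395 and 225 in K5H2. The Rpa2 and Rpa3 groups overlapped, and Rpa3 had the widest within-group SD of the 33, at 0.428 on the log2 scale.

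The incision nucleases are XPF with its partner ERCC1 on the 5′ side and XPG on the 3′ side. Ercc4 (XPF) was at 681, 744 and 788 in WT, at 873, 799 and 1088 in Hmga2-/-, and at 863, 833 and 879 in K5H2, with both other genotypes above WT without overlap. Ercc1 was at 752, 608 and 722 in WT, at 670, 606 and 596 in Hmga2-/-, and at 702, 865 and 664 in K5H2. Ercc5 (XPG) was at 1593, 1813 and 1844 in WT, at 1691, 2144 and 1827 in Hmga2-/-, and at 2201, 1877 and 1828 in K5H2. The Ercc1 and Ercc5 groups overlapped. Over the 7 genes of verification and incision, 6 were positive in Hmga2-/- against WT (3 after rescaling to equal totals) and 4 in K5H2 against WT, and 0 were called by limma, with 1 and 0 at an unadjusted p under 0.05.

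Gap filling and ligation use proteins of DNA replication and of single-strand break repair. Pole, the catalytic subunit of DNA polymerase epsilon (chromosome 5, 110286306 to 110337474, plus strand), was at 898, 780 and 799 in WT, at 575, 571 and 720 in Hmga2-/-, and at 742, 652 and 797 in K5H2. Hmga2-/- was wholly below WT, and K5H2 overlapped both. Its log2 fold change was -0.41 (SE 0.16, limma adjusted p = 0.160) in Hmga2-/- against WT, -0.18 (SE 0.16, limma adjusted p = 0.571) in K5H2 against WT and 0.23 (SE 0.16, limma adjusted p = 0.401) in K5H2 against Hmga2-/-. Pold1, the catalytic subunit of polymerase delta, was at 1240, 1508 and 1352 in WT, at 1547, 1776 and 2287 in Hmga2-/-, and at 2292, 1513 and 1251 in K5H2, on the other side of WT from Pole in Hmga2-/-. Rfc1, the large subunit of the clamp loader, was at 1870, 1679 and 1789 in WT, at 1670, 1389 and 1415 in Hmga2-/-, and at 1509, 1496 and 1886 in K5H2, with Hmga2-/- below WT without overlap.

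The ligases overlapped between genotypes, and their scaffold did not in Hmga2-/- against WT. Lig1, the replicative ligase, was at 2252, 2502 and 2566 in WT, at 2191, 3085 and 2912 in Hmga2-/-, and at 3088, 2104 and 2165 in K5H2. Lig3 was at 2046, 2015 and 1882 in WT, at 1749, 1707 and 2107 in Hmga2-/-, and at 1891, 2004 and 2418 in K5H2, and shares 25.1% of its exonic bases with Rffl on the opposite strand. Xrcc1, the scaffold that carries LIG3, was at 694, 959 and 929 in WT, at 1237, 986 and 1111 in Hmga2-/-, and at 966, 1034 and 842 in K5H2. Every Hmga2-/- animal was above every WT animal for Xrcc1, and K5H2 overlapped both. Beside these genes of replication, 16 markers of S phase and mitosis summed to 46375 to 56174 in WT, 36237 to 42766 in Hmga2-/- and 35440 to 43236 in K5H2, and 15 of the 16 were negative against WT in each. The part of that difference in the gap-filling genes was not tested.

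**Figure D3:**
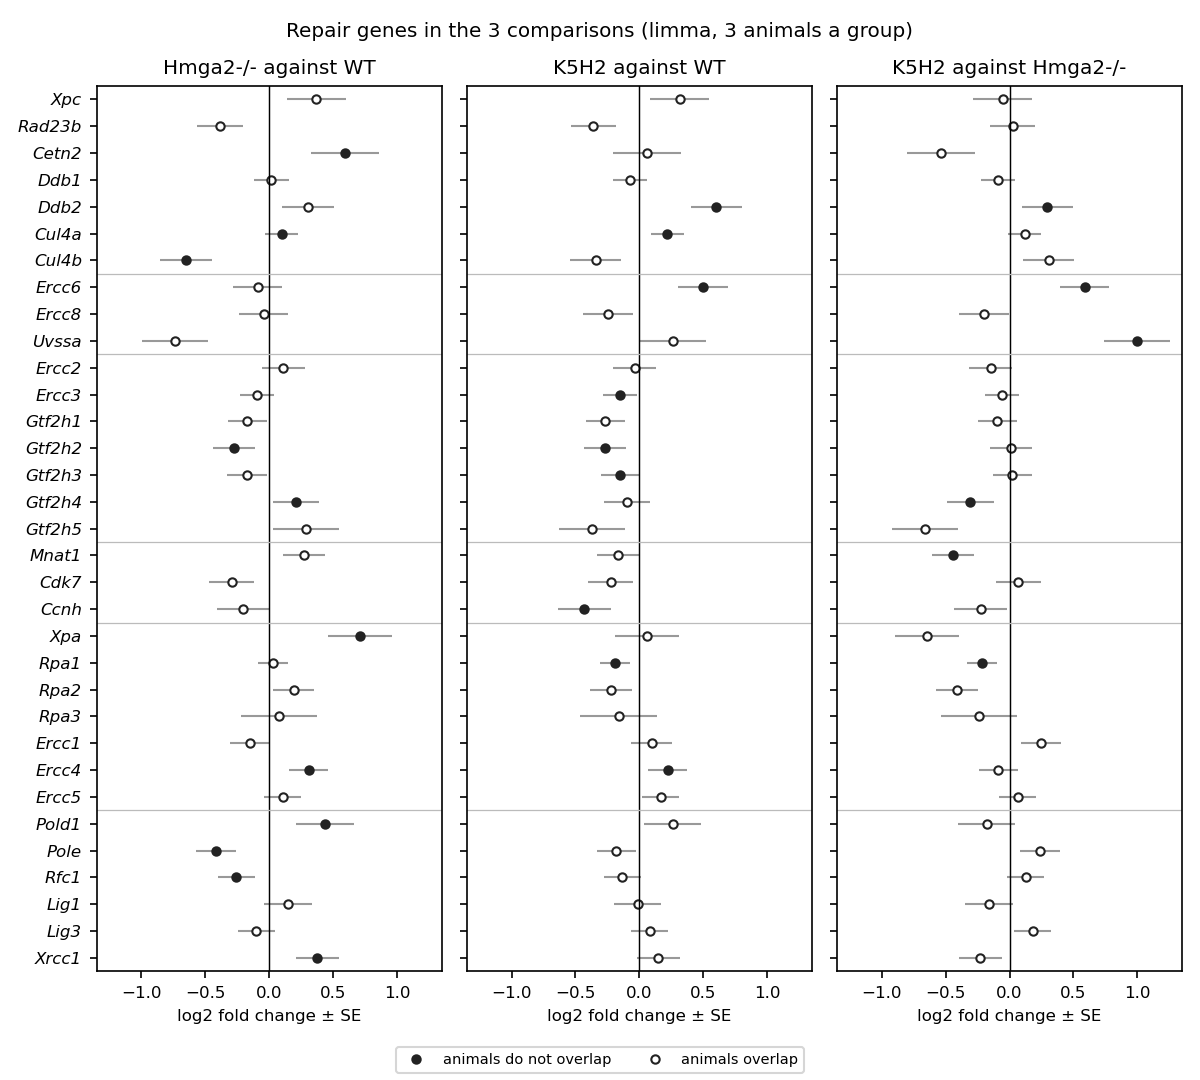
Log2 fold change ± SE (horizontal axis, limma, 3 animals a genotype) of the 33 repair genes in the 3 comparisons, in order of role. Filled points mark genes whose animals do not overlap between the genotypes compared, open points those that overlap. Uvssa in K5H2 against Hmga2-/- lies farthest from 0, at 1.00, and no gene passed an adjusted p of 0.05.

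Seen over all roles, genes without overlap were about as common as in the genome at large in the comparisons with WT. In Hmga2-/- against WT 11 of 33 members (33.3%) did not overlap, 7 higher and 4 lower, against 29.7% of all genes tested. In K5H2 against WT the number was 9 (27.3%), 4 higher and 5 lower, against 26.9%. In K5H2 against Hmga2-/- it was 6 (18.2%), 3 each way, against 26.4%. The plot of log2 fold changes shows that these genes fall on both sides of 0 in every comparison and mostly within 0.5 of it. Numbers of positive and negative members were 18 and 15 in Hmga2-/- against WT, 13 and 20 in K5H2 against WT, and 14 and 19 in K5H2 against Hmga2-/-. After rescaling to equal library totals, which moved the median of all genes to -0.17, 0.04 and 0.23, they were 11 and 22, 15 and 18, and 24 and 9, so the balance of signs depends on the scaling.

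**Figure D4:**
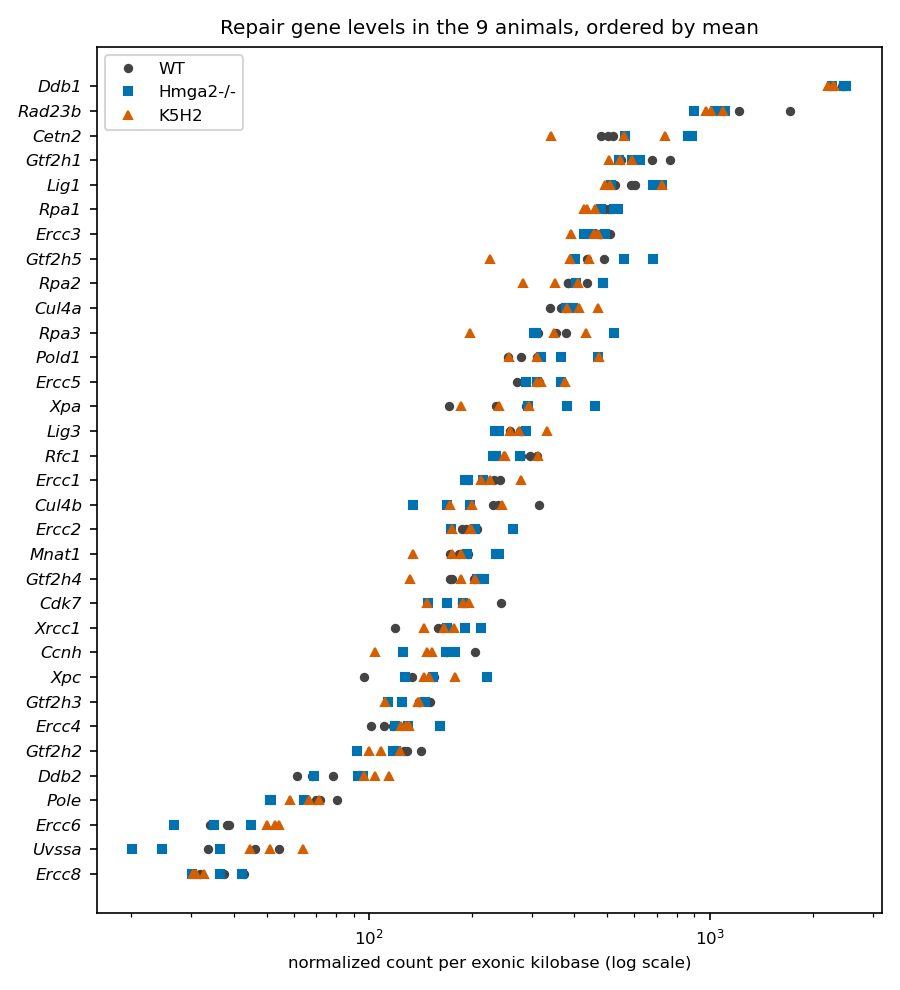
Normalized count per exonic kilobase (horizontal axis, log scale) of the 33 repair genes in each of the 9 animals, ordered by the mean over the animals. Ddb1 leads at a mean of 2365 and Ercc8 is last at 35.1, and the genotypes are interleaved for most genes.

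Set against each other per exonic kilobase, the repair genes spanned a wide range that the genotypes shared. The mean over the 9 animals was 2365 normalized counts per exonic kilobase for Ddb1, 1125 for Rad23b, 605 for Cetn2, 598 for Gtf2h1 and 595 for Lig1. At the other end were Ddb2 at 86.7, Pole at 65.1, Ercc6 at 41.7, Uvssa at 41.7 and Ercc8 at 35.1. All 3 genes of the transcription-coupled branch thus held the lowest ranks, and neighbours such as Ercc6 and Uvssa, or Cetn2, Gtf2h1 and Lig1, did not differ beyond the spread of their animals. Exonic length is the union of all annotated exons, which overstates the transcript in genes with long unused exons.

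Deviations followed gene length in some of the libraries. In Hmga2-/- 2 short members tended to be high and long ones low. The Spearman rho between exonic length and deviation was -0.563 over the 33 members and -0.339 over all genes tested. In K5H2 3 the order was the opposite, with 0.552 and 0.354. In Hmga2-/- 1 it was -0.182 over members and -0.310 over all genes. In the other 6 libraries it lay between -0.0602 and 0.150 over members and between -0.125 and 0.151 over all genes. These are descriptions over genes of one library, which share its depth and preparation, and the genes are not independent replicates.

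**Figure D5:**
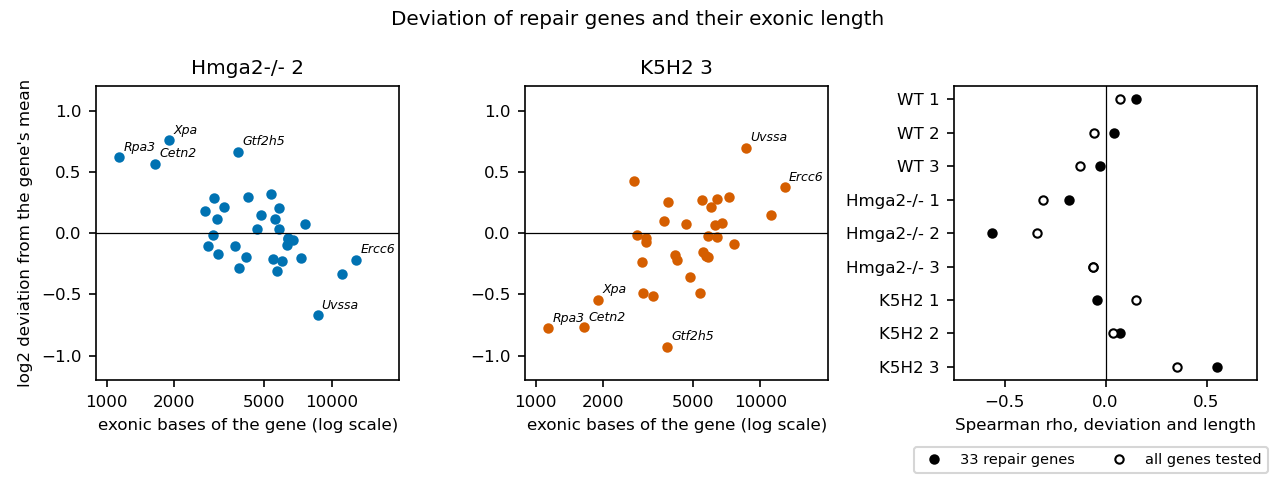
Deviation of the 33 repair genes from their mean (log2, vertical axes) against exonic bases (log scale) in Hmga2-/- 2 and K5H2 3, and Spearman's rho between the 2 in each of the 9 libraries for repair genes (filled) and for all genes tested (open). Rpa3, Cetn2 and Xpa, the 3 shortest, are high in Hmga2-/- 2 and low in K5H2 3, and Uvssa shows the reverse.

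The plot of deviation against length shows the 3 shortest members high in Hmga2-/- 2 and low in K5H2 3. Xpa, with 1894 exonic bases, deviated by 0.76 in Hmga2-/- 2 and by -0.54 in K5H2 3, Cetn2, with 1646, by 0.57 and -0.76, and Rpa3, with 1136, by 0.62 and -0.78. Gtf2h5, of middle length at 3855 exonic bases, ran further still, from 2625 normalized counts in Hmga2-/- 2 to 872 in K5H2 3. The next members in length were not high in Hmga2-/- 2 and low in K5H2 3 to that degree. Ddb2, with 2736 exonic bases, deviated by 0.18 and 0.42. Ercc3, with 2835, deviated by -0.10 and -0.01, and Gtf2h1, with 2984, by -0.01 and -0.23. Uvssa has 8666 exonic bases and Ercc6 12851. The log2 fold change followed length too, with a rho over members of -0.295 in Hmga2-/- against WT, 0.252 in K5H2 against WT and 0.468 in K5H2 against Hmga2-/- (-0.163, 0.195 and 0.367 over all genes). Without both Hmga2-/- 2 and K5H2 3, K5H2 against Hmga2-/- gave 0.81 for Uvssa (limma adjusted p = 0.530), 0.58 for Ercc6 (limma adjusted p = 0.530) and -0.33 for Xpa (limma adjusted p = 0.677), where the last had been -0.65. The part of length in these differences was not tested beyond these values.

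Other genes of the pathway were taken from a list of 20, of which 19 were tested and Pold4 was listed at 0 in every library. Of the 19, 0 were called in any comparison (limma). Values follow in order Hmga2-/- against WT, K5H2 against WT and K5H2 against Hmga2-/-. Of all genes tested, 0.728%, 1.28% and 0.497% were called. An unadjusted p under 0.05 (limma) went to 0, 3 and 3 of the 19 (0%, 15.8% and 15.8%). The shares of all genes tested were 23.7%, 18% and 21.1%. The 19 divided into 10 positive and 9 negative, 5 and 14, and 3 and 16, with medians of 0.03, -0.18 and -0.18. The last division became 10 and 9 after rescaling to equal totals. Rfc2, a subunit of the clamp loader, was at 1489, 1432 and 1754 in WT, at 1599, 1402 and 1088 in Hmga2-/-, and at 1013, 1055 and 1052 in K5H2. All K5H2 animals were below all others. Its log2 fold change in K5H2 against WT was -0.58 (SE 0.16, limma adjusted p = 0.105), and the authors' deposited table gives an adjusted p of 0.0366. Elof1, a transcription elongation factor that acts in transcription-coupled repair, was at 1838, 1980 and 2333 in WT, at 2284, 2326 and 2166 in Hmga2-/-, and at 1655, 1823 and 1356 in K5H2, on the other side from Ercc6 and Uvssa in K5H2. Rfc2 and Elof1 were chosen after their values were seen.

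Genes that tolerate UV damage or respond to it through p53 were counted on a list of 12, all tested. Of these, 1 was called (limma), Sesn1, a p53 target that restrains growth signalling, in K5H2 against WT, where 1.28% of all genes were called. Its log2 fold change there was 1.25 (SE 0.16, limma adjusted p = 0.00699). For Sesn1 it was 0.58 in Hmga2-/- against WT (limma adjusted p = 0.102) and 0.67 in K5H2 against Hmga2-/- (limma adjusted p = 0.0925). The authors' deposited table gives Sesn1 adjusted p values of 2.64e-08, 0.0416 and 0.0170 in these comparisons, in that order. At an unadjusted p under 0.05 there were 4 (33.3%), 3 (25%) and 2 (16.7%) of the 12 in Hmga2-/- against WT, K5H2 against WT and K5H2 against Hmga2-/-, beside 23.7%, 18% and 21.1% of all genes tested. Rad18, the ubiquitin ligase that starts damage tolerance at stalled forks, was at 789, 411 and 479 in WT, at 288, 323 and 161 in Hmga2-/-, and at 344, 347 and 355 in K5H2. Both other genotypes were wholly below WT. Its log2 fold change in Hmga2-/- against WT was -1.12 (SE 0.29, limma adjusted p = 0.0948), and the authors' deposited table gives an adjusted p of 0.00963. Rev3l, on the same list, has an adjusted p of 0.0281 in K5H2 against Hmga2-/- in the authors' deposited table (limma adjusted p = 0.121). Rad18 and Rev3l were chosen after their values were seen.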

How the data were processed

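RNA of 9 libraries, 3 mice of each genotype, was sequenced from poly(A)-selected, directional libraries, per the labels' protocols. Trim Galore, STAR, DESeq2 and GRCm38 are named in the submitters' processing notes, and no source used here names the counter or its strand setting. The authors deposited normalized counts, a score rounded to whole numbers and therefore not raw counts, per the file headers, and a mean of them over the libraries. The authors deposited log2 fold changes and p-values of their own comparisons, per the file headers.

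The planned test was limma-trend, two-sided, and a test for raw counts would have replaced it only if the values were raw. It was run on log2(value + 1) of all 9 libraries in one fit, for genes of at least 10 in at least 3 libraries, with Benjamini-Hochberg adjustment over 14695 genes. This scale understates changes of low genes. Approximate reads came from what 1 read is worth in each library, found from genes seen in that library alone, of which 97.96% to 100% lay within 0.1 reads of whole multiples. Exons are from GENCODE M21 and promoters from RefSeq. BLAST+ found a stretch of at least 200 bases at 95% identity in another gene for Cul4a only, shared with Maoa and 7 genes near 0. Tools were limma 3.58.1 in R 4.3.3, scipy 1.17.1 in Python 3.11.15, and BLAST+ 2.17.0.

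Members and lists were chosen with earlier results of these data known. Statistics are printed for called members, for the 4 of smallest p in each comparison and for Ddb2, Xpc, Xpa and Ercc6. Alternatives covered scaling, filters, pseudocounts, weights, robust moderation, the groups in the fit, a replicate block and libraries left out.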

Additional observations from a re-analysis of the deposited data

How the results depend on the processing

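The 10 members given with statistics were recomputed under 22 alternatives in 3 comparisons. Of 660 values, 644 kept their direction and their side of the threshold, 3 came to pass it (Ercc6 at 0.61 and Ddb2 at 0.39 in K5H2 against WT with quality weights, and Ercc6 at 0.81 in K5H2 against Hmga2-/- rescaled to totals) and 13 changed sign. Of the latter, leaving out 1 library gave log2 fold changes of -0.28 to 0.10 for Ercc6 in Hmga2-/- against WT (positive without Hmga2-/- 1), -0.14 to 0.24 for Xpa in K5H2 against WT (negative without WT 1 or K5H2 1), and, in K5H2 against Hmga2-/-, -0.23 to 0.17 for Xpc (positive without Hmga2-/- 3 or K5H2 1) and -0.061 to 0.092 for Rad23b (negative without Hmga2-/- 2 or K5H2 2). Without both WT 1 and Hmga2-/- 3, Xpc was at -0.044 and Ccnh at 0.041 in Hmga2-/- against WT, Xpa at -0.14 in K5H2 against WT and Xpc at 0.17 in K5H2 against Hmga2-/-. Xpc was also at 0.17 there after rescaling to totals, and Rad23b at -0.026 without both Hmga2-/- 2 and K5H2 3. The cause was not tested.

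In order Hmga2-/- against WT, K5H2 against WT and K5H2 against Hmga2-/-, genes called numbered 107, 188 and 73. With quality weights they were 828, 3222 and 277, without both WT 1 and Hmga2-/- 3 they were 0, 74 and 42, and without both Hmga2-/- 2 and K5H2 3, an alternative added after seeing the data, 28, 19 and 6. Leaving out 1 library gave 1 to 482, 17 to 307 and 19 to 213. Rescaling to totals gave 193 and 321 in the first and last. Fitting 2 groups alone gave 22 and 103 in the comparisons with WT. In K5H2 against WT a minimum of 50 gave 119, a pseudocount of 10 gave 284 and quantile normalization 291. Members called were 0 except 3 with quality weights in K5H2 against WT (Ddb2, Cul4a and Ercc6) and 1 (Ercc6) after rescaling to totals in K5H2 against Hmga2-/-.

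The members' median log2 fold change was 0.028, -0.095 and -0.088. It was 0.053, -0.056 and -0.031 with quality weights, -0.14, -0.033 and 0.14 rescaled to totals, and 0.0022 to 0.10, -0.11 to -0.022 and -0.088 to -0.050 with 1 library left out. In the comparisons of K5H2 with WT and with Hmga2-/- it was -0.058 and -0.045 at equal upper quartiles, and -0.022 and -0.033 without both Hmga2-/- 2 and K5H2 3. In K5H2 against Hmga2-/- it was -0.030 after quantile normalization and -0.060 without both WT 1 and Hmga2-/- 3.

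Same-numbered libraries deviated together by correlations of -0.217 to 0.209 and share only a number. With the replicate number as a block, genes called were 123, 120 and 85, and members called 0. The low depth of Hmga2-/- 3 and 3 animals per genotype limit what differences could be detected.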
